A study of Mus musculus with 12 samples.

Results

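The endothelial marker genes of a cultured heart cell preparation were followed here across 2 genotypes and 1 drug treatment. The 32 genes were taken as a list of symbols, made of markers shared by endothelial cells in general and markers of capillary endothelium. Each symbol matched 1 probe set, so the 32 members stood among 24704 genes with a symbol. The list was not chosen by a measured value of any probe set, but it was drawn up with earlier results of these arrays known.

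Ventricular myocytes of adult mice were released by enzyme with a Langendorff perfusion system, cultured, and kept for 24 h with 100 nM Iso (isoproterenol, an agonist of beta-adrenergic receptors) or without it. The mice either lacked both CaMKIIδ and CaMKIIγ, isoforms of the calcium/calmodulin-dependent protein kinase II (DKO), or were the matching wild type (WT). The 12 Affymetrix arrays form 4 groups of 3, namely untreated WT, Iso-treated WT, untreated DKO and Iso-treated DKO, and the study asked whether Iso changes myocyte transcripts and whether the kinase is needed. Each of 6 mice gave 1 untreated and 1 treated array: DKO arrays 1 to 3 came from mice 1 to 3, and WT arrays 1 to 3 from mice 4 to 6. The promoter or Cre line behind the deletions, and the strain and sex of the mice, go unstated in the labels used here, as does any sorting step that would remove cells other than myocytes.

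Endothelial cells line the blood vessels, and in the heart a dense capillary bed runs alongside the myocytes. They hold together through junctions built on VE-cadherin (Cdh5) and claudin-5 (Cldn5), depend on VEGF signalling through the receptors Kdr and Flt1 and on angiopoietin signalling through Tek, and are kept in their state by ETS family factors such as Erg and Fli1. Heart capillaries also pass fatty acids to the myocytes, with Gpihbp1 holding lipoprotein lipase at the vessel wall and Cd36 and Fabp4 taking up and carrying the fatty acids. Some markers are shared with other cells: Cd36 is also made by myocytes, Fabp4 by adipocytes and macrophages, Pecam1 and Fli1 by leukocytes and platelets, Aqp1 by red blood cells and Podxl by mesothelium.

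Promoters were available for 16 of the 32 members, as 21 windows running from 250 bases before to 50 bases after an annotated start (RefSeq, GRCm38.p6). The 4 printed here belong to the members with such an entry that had the largest difference in Iso effect between the genotypes, and the capitals mark matches to the ETS core, spelled CGGAAG or AGGAAG and searched on both strands. The windows are Eng at chr2:32646345-32646644 on the plus strand, Aqp1 at chr6:55336049-55336348 on the plus strand, Car4 at chr11:84957504-84957803 on the plus strand and Flt1 at chr5:147725962-147726261 on the minus strand.
Eng: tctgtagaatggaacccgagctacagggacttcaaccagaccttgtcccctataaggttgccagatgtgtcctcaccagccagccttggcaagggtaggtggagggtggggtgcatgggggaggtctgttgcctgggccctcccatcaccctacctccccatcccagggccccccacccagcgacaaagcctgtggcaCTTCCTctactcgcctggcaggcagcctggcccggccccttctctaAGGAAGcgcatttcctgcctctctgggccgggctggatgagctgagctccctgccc
Aqp1: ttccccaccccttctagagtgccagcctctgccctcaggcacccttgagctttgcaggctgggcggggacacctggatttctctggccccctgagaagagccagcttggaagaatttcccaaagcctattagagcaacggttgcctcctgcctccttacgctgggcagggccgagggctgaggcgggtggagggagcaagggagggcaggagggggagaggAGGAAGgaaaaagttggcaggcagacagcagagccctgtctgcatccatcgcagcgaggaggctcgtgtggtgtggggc
Car4: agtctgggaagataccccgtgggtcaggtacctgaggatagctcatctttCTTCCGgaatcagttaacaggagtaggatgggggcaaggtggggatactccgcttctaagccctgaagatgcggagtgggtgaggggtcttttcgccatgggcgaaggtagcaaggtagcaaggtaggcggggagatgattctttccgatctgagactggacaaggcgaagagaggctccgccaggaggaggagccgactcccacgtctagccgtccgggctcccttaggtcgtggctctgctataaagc
Flt1: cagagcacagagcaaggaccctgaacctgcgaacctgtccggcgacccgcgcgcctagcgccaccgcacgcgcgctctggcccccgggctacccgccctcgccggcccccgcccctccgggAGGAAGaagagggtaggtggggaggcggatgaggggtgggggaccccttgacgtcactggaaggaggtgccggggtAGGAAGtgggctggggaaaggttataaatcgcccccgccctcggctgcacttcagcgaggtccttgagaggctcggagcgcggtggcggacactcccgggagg
Counting from the start, the Eng matches lie at -52 to -47, on the opposite strand (so written CTTCCT), and at -6 to -1. Those of Flt1 lie at -129 to -124 and -53 to -48, that of Aqp1 at -29 to -24, and that of Car4, on the opposite strand (CTTCCG), at -200 to -195. At least 1 match stood in 11 of the 16 members with an entry, against 49.8% of 27025 genes, and in 12 of the 21 member windows, against 46.5% of 32851 windows, so the core is common in promoters of any kind. The GATA core AGATAA was found in 2 members, Erg and Tek, against 12.7% of genes. The SOX core AACAAT was found in 4 members, Cd36, Emcn, Erg and Tek, against 12.2% of genes, and the FOX core GTAAACA in 0 members, against 4.05% of genes. A match is a run of letters and not a known binding site.

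Values are log2 signals summarised by the authors with RMA, which brings the arrays to one shared distribution, so each value is a level relative to the other probe sets of its array. The median of an array was 3.32. Of the cardiomyocyte markers listed, 17 of 18 lay above that median on all 12 arrays, with Myh7, the fetal and slow myosin, as the exception. The deleted gene Camk2g was 1.17 lower in log2 in untreated DKO arrays (limma adjusted p = 0.0361) and 1.67 lower in treated ones (limma adjusted p = 0.00238), while Camk2d differed by -0.29 (limma adjusted p = 0.446) and -0.35 (limma adjusted p = 0.640). The position of the Camk2d probe set relative to the deleted part is unknown here. Untreated DKO array 3 stood apart from the rest: its correlation with the other arrays had a median of 0.956, against 0.984 to 0.988 for each other array. Member results and list medians that rest on it are mostly given with and without it. Single genes outside the 32 are given with all 12 arrays only. The labels call the arrays of a group biological replicates of separate mice, so the spread below holds differences between mice, cultures and arrays together.

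Endothelial transcripts were measurable in these myocyte cultures. Of the 32 members, 28 lay above the array median on all 12 arrays, as did 9623 of all 24704 genes. These 28 were tested, since the filter asked for values above the median on at least 3 arrays. Clec14a, Sox18, Plvap and Ly6c1 did not pass that filter, with values between 2.63 (Ly6c1) and 3.39 (Clec14a). Plvap, which forms the diaphragms of fenestrae and caveolae, lay above the median on none. The defining pan-endothelial genes Pecam1 and Cdh5 were far above it, at 7.78 to 8.58 and 7.76 to 8.88. In bulk RNA of this kind, fewer endothelial cells and less endothelial RNA per cell cannot be told apart.

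**Figure D1:**
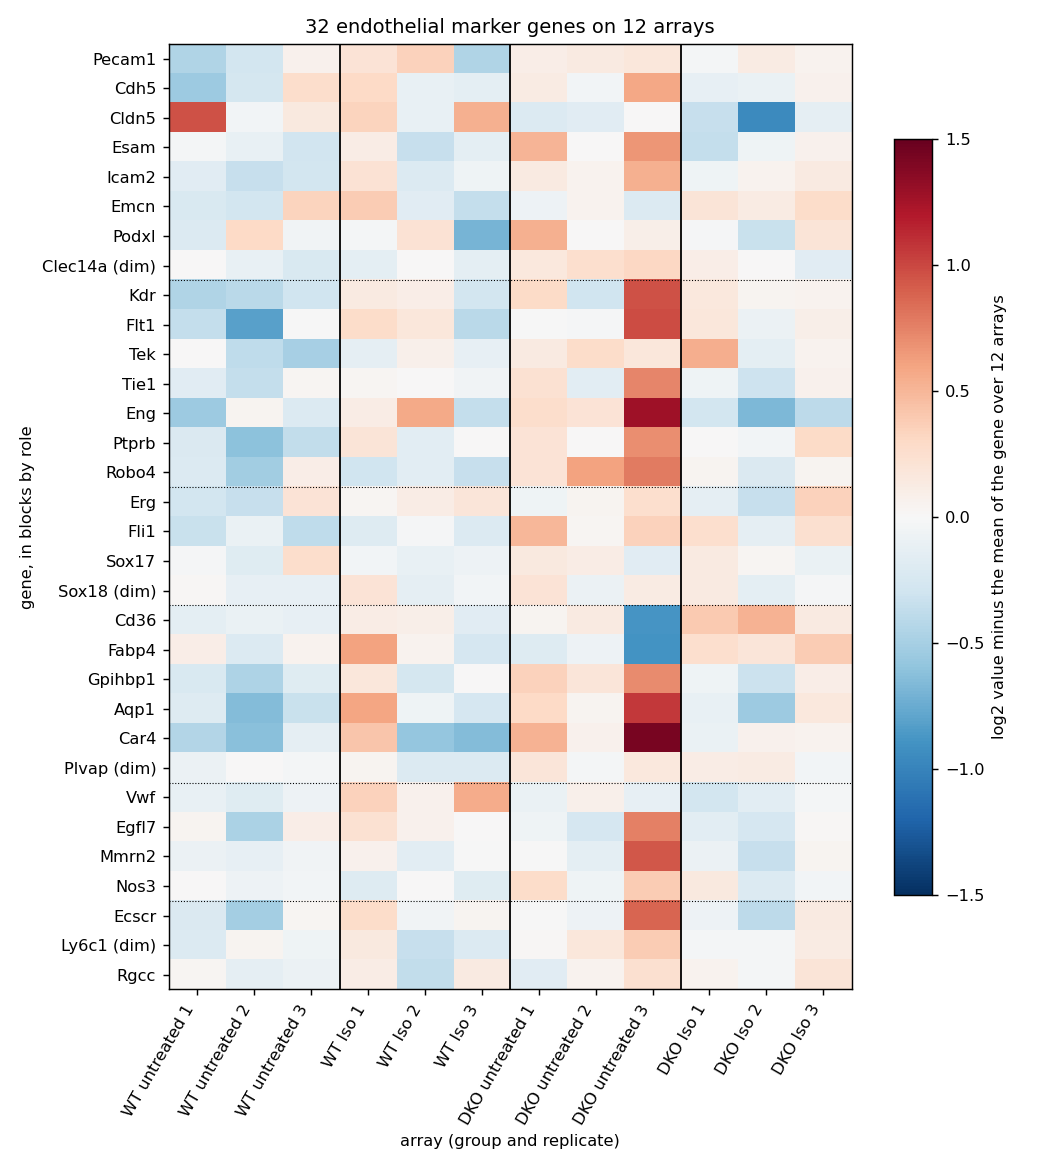
Each row is 1 of the 32 endothelial markers, grouped by role, and each column 1 of the 12 arrays; the colour is the log2 value minus the mean of that gene over the 12 arrays. The column of untreated DKO array 3 is high for most rows and low for Cd36 and Fabp4.

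The level of the members as a whole differed from array to array. The median of the 32 deviations from each gene's own mean was -0.18, -0.23 and -0.06 on untreated WT arrays 1 to 3, and 0.15, -0.06 and -0.15 on the WT arrays with Iso. In DKO it was 0.15, 0.03 and 0.38 without Iso and -0.03, -0.12 and 0.07 with it. All 3 untreated DKO arrays thus lay above all 3 untreated WT arrays, while the treated groups overlapped. The same median over all genes tested stayed between -0.02 and 0.01 on every array.

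Untreated DKO array 3 held the highest value of 19 of the 32 members and the lowest of 2, Cd36 and Fabp4, while over all genes tested 24.5% had their highest and 24.8% their lowest value there. Car4, a carbonic anhydrase of the capillary surface, read 7.60 on it, 0.90 above the next array. For Mmrn2, a matrix protein bound by endothelial Clec14a, the gap to the next array was 0.87, for Eng 0.70, for Flt1 0.69 and for Kdr 0.65. Cd36 and Fabp4 went the opposite way: Cd36 read 10.60 there and 11.31 to 11.99 elsewhere, and Fabp4 10.87 there and 11.52 to 12.37 elsewhere. At the low end, untreated WT array 2 held the lowest value of 11 members, against 3.48% of all genes tested.

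Among the growth factor receptors and their partners, Kdr (Entrez gene 16542), the main signalling receptor for VEGF, read 6.23, 6.26 and 6.37 on untreated WT arrays and 6.81, 6.77 and 6.39 with Iso, and in DKO 6.97, 6.37 and 7.62 untreated and 6.83, 6.72 and 6.72 with Iso. All 3 treated WT arrays were above all 3 untreated ones, and the untreated DKO arrays were spread the most (SD 0.625, n = 3, against 0.0776 in untreated WT). Flt1, the VEGF receptor that acts largely as a decoy, read 5.14, 4.68 and 5.48 in untreated WT, 5.78, 5.67 and 5.09 in WT with Iso, 5.49, 5.48 and 6.47 in untreated DKO and 5.66, 5.40 and 5.58 in treated DKO. Its 4 groups overlapped except that untreated DKO reached above every other array on array 3.

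Eng (Entrez gene 13805) is endoglin, a co-receptor for ligands of the TGF-beta and BMP family. Its values were 4.58, 5.17 and 4.92 in untreated WT, 5.24, 5.70 and 4.77 in WT with Iso, 5.39, 5.33 and 6.40 in untreated DKO and 4.85, 4.46 and 4.74 in treated DKO. All 3 untreated DKO arrays lay above all 3 treated DKO arrays and above all 3 untreated WT arrays. Robo4 (Entrez gene 74144), a guidance receptor that stabilises vessels, read 3.69, 3.39 and 4.00 in untreated WT and 3.60, 3.74 and 3.56 in WT with Iso, against 4.11, 4.51 and 4.69 in untreated DKO and 3.94, 3.68 and 3.94 in treated DKO. Untreated DKO was again above both untreated WT and treated DKO with no overlap.

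Ptprb (Entrez gene 19263), the phosphatase VE-PTP that acts on Tek and on VE-cadherin, read 4.99, 4.60 and 4.84 in untreated WT, 5.40, 5.05 and 5.21 in WT with Iso, 5.41, 5.21 and 5.92 in untreated DKO and 5.22, 5.17 and 5.50 in treated DKO. Untreated WT was the lowest group, without overlap with any of the others. Tek, the angiopoietin receptor, read 4.43, 4.04 and 3.92 in untreated WT, 4.29, 4.50 and 4.31 in WT with Iso, 4.55, 4.71 and 4.59 in untreated DKO and 4.98, 4.27 and 4.47 in treated DKO. Untreated DKO was above both WT groups for Tek, and treated DKO overlapped with each of the others. Its relative Tie1 ranged from 5.15 to 6.24 over the 12 arrays.

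The junction and adhesion genes differed among themselves. Pecam1 (Entrez gene 18613), the adhesion molecule CD31, read 7.78, 7.95 and 8.29 in untreated WT, 8.44, 8.58 and 7.78 in WT with Iso, 8.33, 8.36 and 8.40 in untreated DKO and 8.20, 8.35 and 8.28 in treated DKO. The 6 DKO arrays lay within 8.20 to 8.40, so Pecam1 was not among the genes high on untreated DKO array 3. Cdh5 (Entrez gene 12562) read 7.76, 8.04 and 8.57 in untreated WT, 8.60, 8.19 and 8.15 in WT with Iso, 8.43, 8.27 and 8.88 in untreated DKO and 8.18, 8.20 and 8.37 in treated DKO, with overlap between all groups.

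Cldn5 had its highest value, 8.31, on untreated WT array 1, and read 7.33 and 7.51 on the other untreated WT arrays and 7.70, 7.25 and 7.89 on the treated WT arrays. In DKO it read 7.16, 7.19 and 7.36 untreated and 7.01, 6.40 and 7.23 with Iso. Every treated DKO array was therefore below every treated WT array. Emcn, the sialomucin endomucin of capillaries and veins, read 5.76, 5.71 and 6.31 in untreated WT, 6.37, 5.82 and 5.63 in WT with Iso, 5.91, 6.03 and 5.78 in untreated DKO and 6.18, 6.10 and 6.25 in treated DKO. Its treated DKO arrays were all above the untreated ones. Over the 12 arrays, Esam ranged from 3.78 to 4.80, Icam2 from 5.28 to 6.15 and Podxl, an anti-adhesive sialomucin, from 3.32 to 4.56.

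Of the transcription factors, Erg ranged from 3.95 to 4.64, Fli1 from 4.06 to 4.94 and Sox17, a factor of arterial identity, from 3.44 to 3.88, and none of these had its highest value on untreated DKO array 3. Sox18 was dim throughout, between 3.00 and 3.34.

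**Figure D2:**
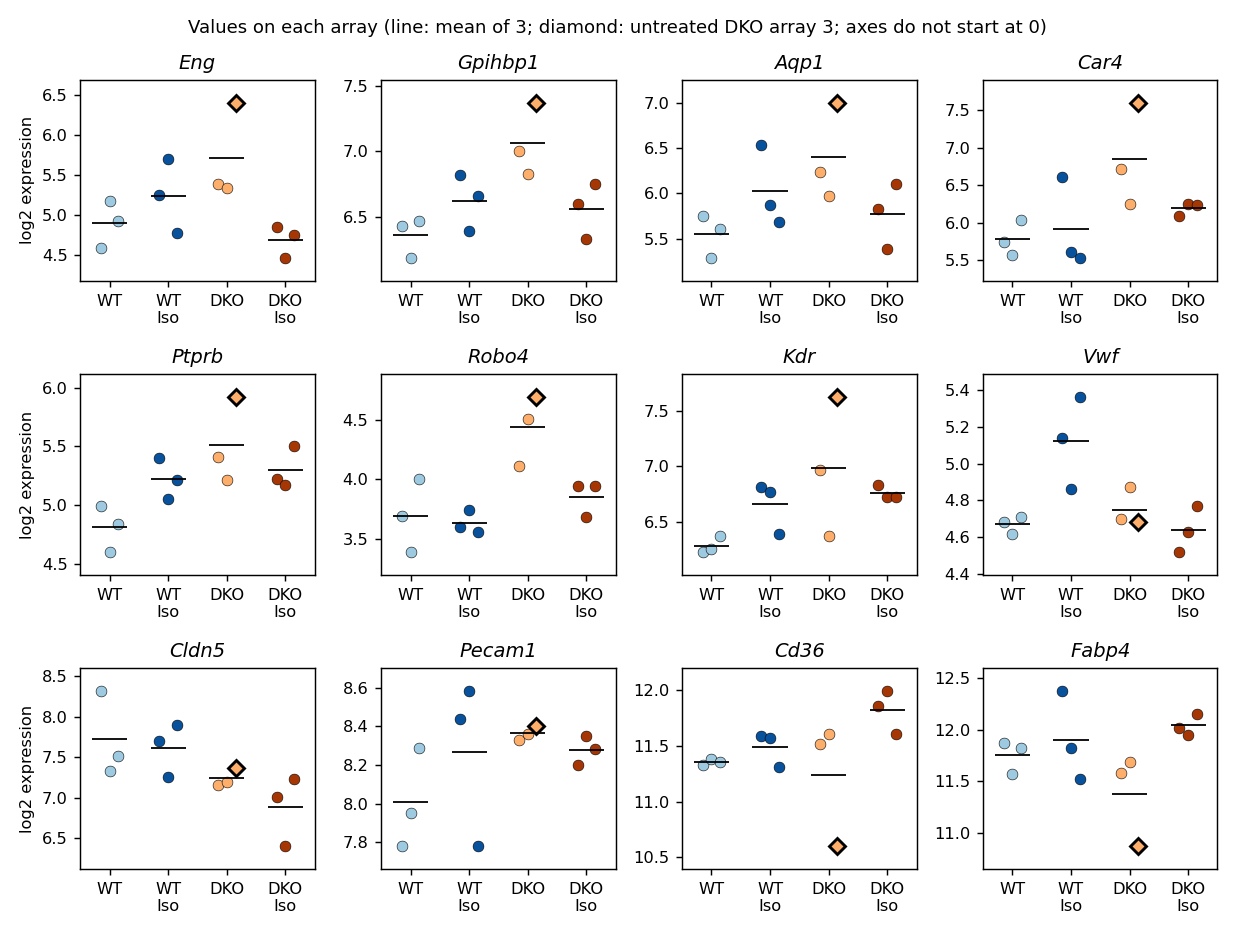
Points are the log2 signal of selected endothelial markers on each array, with the 4 groups side by side, a line at the mean of 3 arrays, a diamond for untreated DKO array 3 and axes that do not start at 0. Eng, Robo4, Gpihbp1 and Car4 sit higher in untreated DKO than in untreated WT without overlap, whereas Cd36 and Fabp4 have their lowest point in untreated DKO.

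Capillary transport genes split into opposite patterns. Gpihbp1 (Entrez gene 68453) read 6.43, 6.19 and 6.47 in untreated WT, 6.82, 6.39 and 6.66 in WT with Iso, 7.00, 6.83 and 7.37 in untreated DKO and 6.60, 6.33 and 6.75 in treated DKO. Untreated DKO was the highest group and separate from every other. Aqp1 (Entrez gene 11826), the water channel, read 5.75, 5.29 and 5.61 in untreated WT, 6.53, 5.87 and 5.69 in WT with Iso, 6.24, 5.97 and 7.00 in untreated DKO and 5.83, 5.39 and 6.10 in treated DKO. Car4 (Entrez gene 12351) read 5.74, 5.56 and 6.04 in untreated WT, 6.61, 5.60 and 5.53 in WT with Iso, 6.71, 6.25 and 7.60 in untreated DKO and 6.09, 6.25 and 6.24 in treated DKO. For both genes untreated DKO lay above untreated WT. For Aqp1 the untreated and treated DKO arrays overlapped, while those of Car4 met at 6.25 after rounding.

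Both fatty acid carriers were at their lowest on untreated DKO array 3. Cd36 (Entrez gene 12491) read 11.33, 11.38 and 11.36 in untreated WT, 11.59, 11.57 and 11.31 in WT with Iso, 11.52, 11.61 and 10.60 in untreated DKO and 11.86, 11.99 and 11.61 in treated DKO. Fabp4 (Entrez gene 11770) read 11.87, 11.57 and 11.82 in untreated WT, 12.37, 11.82 and 11.52 in WT with Iso, 11.58, 11.69 and 10.87 in untreated DKO and 12.02, 11.95 and 12.15 in treated DKO. Treated DKO was above untreated DKO without overlap for Fabp4 and, after rounding, shared the value 11.61 with it for Cd36.

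Among the secreted proteins, Vwf (Entrez gene 22371), the clotting factor stored by endothelium and platelets, read 4.68, 4.62 and 4.71 in untreated WT and 5.14, 4.86 and 5.36 in WT with Iso, and 4.70, 4.87 and 4.68 in untreated DKO and 4.52, 4.63 and 4.77 in treated DKO. The treated WT arrays were all above the untreated WT and the treated DKO arrays, and untreated DKO array 3 was not high. Egfl7 ranged from 6.57 to 7.80, Mmrn2 from 4.70 to 5.97 and Nos3, the endothelial nitric oxide synthase, from 4.32 to 4.90. Ecscr, a surface protein of endothelium, read 5.00, 4.70 and 5.25 in untreated WT, 5.49, 5.17 and 5.26 in WT with Iso, 5.21, 5.14 and 6.09 in untreated DKO and 5.14, 4.83 and 5.35 in treated DKO, and Rgcc, a cell cycle regulator of capillary cells, ranged from 4.61 to 5.21.

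Without Iso, most endothelial markers were higher in DKO than in WT cultures, but no single one passed the test. The difference, DKO minus WT, was above 0 for 28 of 32 members, with a median of 0.35, while over all genes tested 48.1% were above 0 and the median was -0.01. The growth factor receptors had the largest median of the role groups, 0.70 with 7 of 7 above 0. The junction genes had a median of 0.35 with 6 of 8 above 0, the transport genes 0.42 with 4 of 6, the secreted proteins 0.25 with 4 of 4 and the transcription factors 0.18 with 4 of 4. The exceptions were Cldn5 (-0.48), Fabp4 (-0.37), Cd36 (-0.11) and Emcn (-0.02).

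The largest differences were those of Car4, at 1.07 (SE 0.32, 95% interval 0.37 to 1.77, limma adjusted p = 0.200), which is 2.11-fold, and Aqp1, at 0.86 (SE 0.28, limma adjusted p = 0.223). Eng differed by 0.82 (SE 0.29, limma adjusted p = 0.252), Robo4 by 0.74 (SE 0.18, limma adjusted p = 0.130), Gpihbp1 by 0.71 (SE 0.17, limma adjusted p = 0.131) and Flt1 by 0.71 (SE 0.28, limma adjusted p = 0.290). Kdr, at 0.70 (limma adjusted p = 0.237), Ptprb, at 0.70 (limma adjusted p = 0.159), and Fli1, at 0.56 (limma adjusted p = 0.176), followed. With limma, 0 of 28 tested members passed at an adjusted p under 0.05, against 0.204% of all genes tested, and 13 members had an unadjusted p under 0.05, against 13.8% of all genes. The 3 DKO arrays lay wholly above the 3 WT arrays for 12 of 32 members, namely Pecam1, Esam, Icam2, Clec14a, Tek, Eng, Ptprb, Robo4, Fli1, Gpihbp1, Aqp1 and Car4, against 7.16% of all genes, and wholly below for 0, against 7.77%.

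Leaving out untreated DKO array 3 lowered the differences without turning most of them. The median became 0.21 and 29 members were above 0. In log2 the receptors changed most among the role groups, from a median of 0.70 to 0.47, still with 7 of 7 above 0. The secreted proteins went from 0.25 to 0.06, with 3 of 4 above 0. The junction genes had a median of 0.29 with 7 of 8, the transport genes 0.38 with 5 of 6 and the transcription factors 0.13 with 4 of 4. With limma adjusted p-values in parentheses, Car4 differed by 0.70 (0.314), Robo4 by 0.62 (0.180), Gpihbp1 and Aqp1 by 0.56 each (0.187 and 0.385), Ptprb by 0.50 (0.219), Eng by 0.47 (0.445) and Kdr and Flt1 by 0.38 each (0.396 and 0.526), while Mmrn2 went from 0.34 to 0.00 and Egfl7 from 0.26 to -0.05. With 2 DKO arrays, 13 members were wholly above WT, now with Cd36, against 12.9% of all genes, and Cldn5 was wholly below, against 14.4%. Leaving out an array cannot make separate groups overlap, so the members wholly above WT before were bound to remain so. With limma, 10 of the 28 had an unadjusted p under 0.05, against 12.5% of all genes in the fit without that array, and 0 passed after adjustment, against 0.339%.

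The count of members past the adjusted threshold in this comparison depended on how the arrays were weighted. With limma array weights, 7 of the 28 members passed, against 5.08% of all genes tested in that fit. They were Esam, Kdr, Ptprb, Robo4, Fli1, Gpihbp1 and Car4. The weights of untreated DKO arrays 1 to 3 were 2.61, 0.504 and 0.156, with that of array 3 the lowest of all. The weighted untreated DKO mean was therefore mostly that of array 1. With untreated DKO array 2 left out, which leaves array 3 in place, Kdr alone passed, at 1.01, against 1.32% of all genes.

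**Figure D3:**
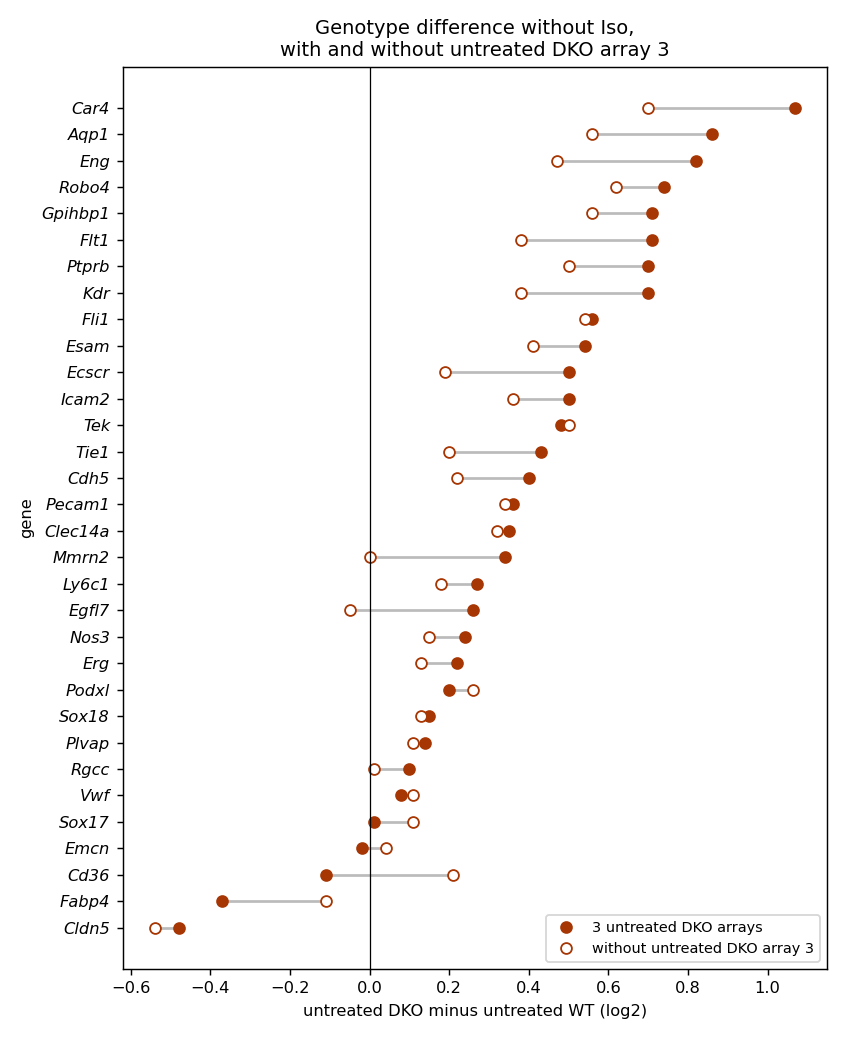
For each endothelial marker, the log2 difference with all 12 arrays is joined to that without untreated DKO array 3, for untreated DKO minus untreated WT (filled: 3 DKO arrays; open: array 3 left out). Most open points lie closer to 0, Car4 goes from 1.07 to 0.70, and Cd36 from -0.11 to 0.21.

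In WT cultures, Iso was followed by small positive differences for most members, and 0 of 28 passed. The difference was above 0 for 25 of 32, with a median of 0.14, against 47.8% of all genes and a median of -0.01. The receptors had the largest group median, 0.35 with 6 of 7 above 0, followed by transport genes at 0.14 and secreted proteins at 0.13. Aqp1 differed by 0.48 (SE 0.28, limma adjusted p = 0.830), Vwf by 0.45 (SE 0.14, 95% interval 0.15 to 0.75, limma adjusted p = 0.538), Flt1 by 0.41 (SE 0.28, limma adjusted p = 0.875), Ptprb by 0.41 (SE 0.18, limma adjusted p = 0.737) and Kdr by 0.37 (SE 0.24, limma adjusted p = 0.865). Pecam1, at 0.26 (limma adjusted p = 0.897), and Cdh5, at 0.19 (limma adjusted p = 0.955), had overlapping groups, and Emcn differed by 0.01.

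Of all genes tested, 0.0218% passed in WT. Ptprb and Vwf were the 2 members with an unadjusted p under 0.05 in limma, against 6.70% of all genes. Kdr, Ptprb and Vwf were wholly higher with Iso, that is 3 of 32 members against 6.53% of all genes, and 0 were wholly lower, against 7.14%. A count of 3 among 32 is close to that background.

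In DKO cultures, most members were lower with Iso, again with 0 of 28 past the test. The difference was above 0 for 4 of 32, Emcn, Cd36, Fabp4 and Rgcc, and its median was -0.23, against 50.9% of all genes and a median of 0.01. Junction genes had a median of -0.27 with 1 of 8 above 0, receptors -0.26 with 0 of 7, transport genes -0.28 with 2 of 6, secreted proteins -0.25 with 0 of 4 and transcription factors -0.11 with 0 of 4.

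Eng had the lowest adjusted p of any member in any comparison: it differed by -1.03 (SE 0.29, 95% interval -1.66 to -0.40, limma adjusted p = 0.112), a 2.04-fold lower signal. Car4 differed by -0.66 (SE 0.32, limma adjusted p = 0.294), Aqp1 by -0.63 (SE 0.28, limma adjusted p = 0.257), Robo4 by -0.58 (SE 0.18, limma adjusted p = 0.127), Gpihbp1 by -0.51 (SE 0.17, limma adjusted p = 0.153) and Esam by -0.51 (SE 0.18, limma adjusted p = 0.172). Against these, Fabp4 differed by 0.66 (SE 0.23, limma adjusted p = 0.167) and Cd36 by 0.58 (SE 0.22, limma adjusted p = 0.193). With limma, 7 members (Esam, Eng, Robo4, Cd36, Fabp4, Gpihbp1 and Aqp1) had an unadjusted p under 0.05, a share not far from the 18.4% of all genes, and 0.0510% of all genes passed after adjustment. The 5 members Clec14a, Eng, Robo4, Gpihbp1 and Car4 were wholly lower with Iso, against 8.71% of all genes, and Emcn and Fabp4 were wholly higher, against 8.32%.

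These values lean on untreated DKO array 3. Without it the median was -0.07 and 7 members were above 0. The receptors had a median of -0.06 with 2 of 7 above 0, the secreted proteins -0.09 with 1 of 4, the transport genes -0.15 with 2 of 6, the junction genes -0.16 with 1 of 8 and the transcription factors -0.09 with 0 of 4. With limma adjusted p-values in parentheses, Eng differed by -0.68 (0.205), Robo4 by -0.46 (0.259), Fabp4 by 0.40 (0.376), Gpihbp1 by -0.36 (0.328), Aqp1 by -0.33 (0.584), Car4 by -0.29 (0.673) and Cd36 by 0.26 (0.406). With only 2 untreated arrays, groups that did not overlap before cannot come to overlap, and the 5 members wholly lower and 2 wholly higher stood against 14.2% and 14.3% of all genes. In limma, Eng, Robo4 and Gpihbp1 had an unadjusted p under 0.05, that is 3 of 28 against 15.0% of all genes, and 0 passed after adjustment, against 0.229%. With array weights Esam and Eng passed after adjustment, 2 of 28 against 8.07% of all genes, a share close to that background. Esam and Eng, at -0.70 and -1.22, also passed with untreated DKO array 2 left out, against 4.45% of all genes.

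The comparison of Iso effects tests the difference itself, the effect in DKO minus that in WT. It was below 0 for most members, 26 of 32, with 6 above 0 and a median of -0.40, against 50.8% of all genes above 0 and a median of 0.01, and 0 of 28 passed. The receptors had a median of -0.60 with 0 of 7 above 0 and the secreted proteins -0.46 with 0 of 4, while Cd36 (0.44), Fabp4 (0.51) and Emcn (0.26) were on the other side. Eng differed by -1.37 (SE 0.41, 95% interval -2.26 to -0.48, limma adjusted p = 0.376), Aqp1 by -1.11 (SE 0.40, limma adjusted p = 0.416), Car4 by -0.80 (SE 0.46, limma adjusted p = 0.548), Gpihbp1 by -0.77 (SE 0.24, limma adjusted p = 0.392) and Ecscr by -0.70 (SE 0.34, limma adjusted p = 0.498). Vwf differed by -0.56 (SE 0.20, limma adjusted p = 0.405), made up of 0.45 in WT and -0.11 in DKO.

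With limma, Eng, Ptprb, Gpihbp1, Aqp1 and Vwf had an unadjusted p under 0.05, 5 of 28 members against 10.1% of all genes, and 0.0146% of all genes passed after adjustment. Without untreated DKO array 3 the median was -0.28 with 5 above 0, that of the receptors -0.35 with 0 of 7 and that of the secreted proteins -0.14 with 0 of 4. With limma adjusted p-values in parentheses, Eng differed by -1.03 (0.317), Aqp1 by -0.81 (0.444), Gpihbp1 by -0.62 (0.374), Vwf by -0.59 (0.350), Car4 by -0.42 (0.745) and Ecscr by -0.39 (0.618). The untreated DKO arrays enter this comparison, the Iso effect in DKO and the genotype comparison without Iso, so these 3 sets of values are not independent of each other.

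**Figure D4:**
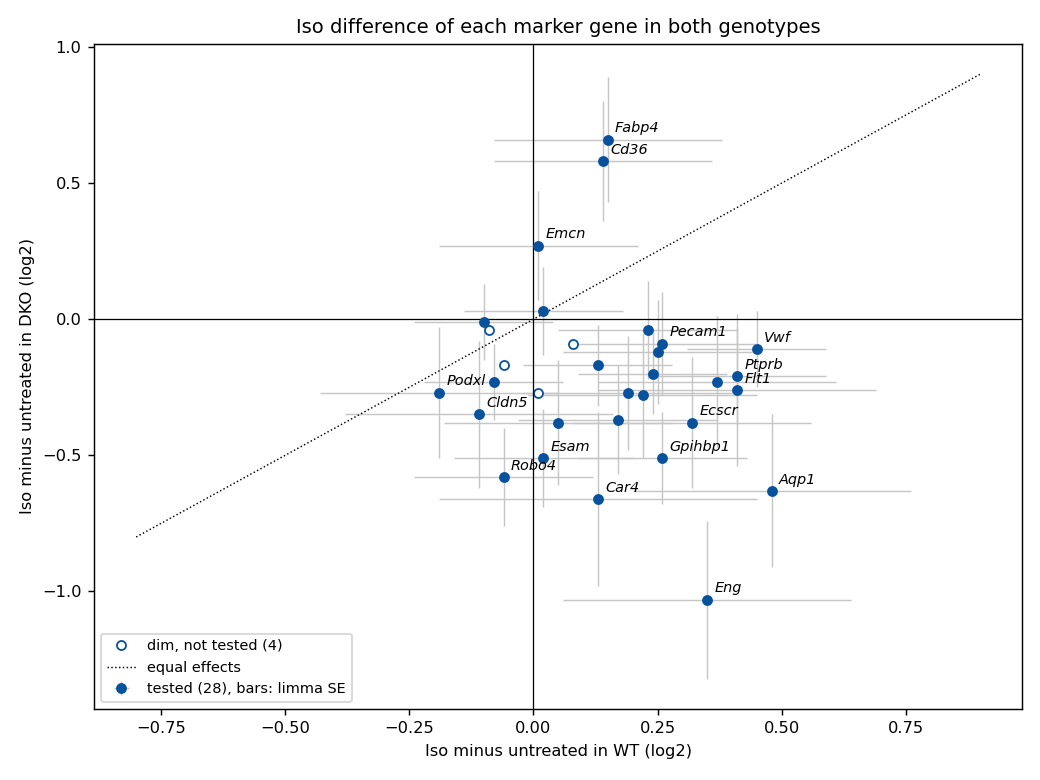
Each point is 1 endothelial marker, with the log2 difference Iso minus untreated in WT on the horizontal axis and in DKO on the vertical axis, with grey bars of 1 limma standard error, open points for the 4 untested genes and a dotted line for equal effects. Most points lie right of 0 and below 0, with Eng lowest at -1.03 in DKO, and Fabp4 and Cd36 highest at 0.66 and 0.58.

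Since each mouse gave both arrays, the Iso difference can also be read within mice. In DKO mouse 1, 26 of 32 members were lower with Iso, in mouse 2 25 and in mouse 3 25, with medians of -0.13, -0.11 and -0.41. In WT mouse 4, 26 members were higher with Iso and in mouse 5 24, with medians of 0.28 and 0.17, but in WT mouse 6 the members were divided, 15 higher and 17 lower, with a median of -0.04. The WT direction was thus carried by 2 of 3 mice, while 47.2% to 50.9% of all genes tested were higher with Iso in any mouse.

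A set of 5 members was higher with Iso in all 3 WT mice and lower in all 3 DKO mice, namely Ptprb, Fli1, Gpihbp1, Aqp1 and Ecscr, against 1.90% of all genes. Gpihbp1 differed by 0.39, 0.20 and 0.19 in WT mice 4 to 6 and by -0.41, -0.50 and -0.62 in DKO mice 1 to 3. Aqp1 differed by 0.78, 0.57 and 0.08 in WT and by -0.41, -0.59 and -0.90 in DKO. Eng was lower in all 3 DKO mice, by -0.54, -0.87 and -1.67, but differed by 0.65, 0.53 and -0.15 in WT, so it is not among the 5. Ecscr differed by 0.49, 0.47 and, after rounding, 0.00 in WT.

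With Iso present, the members differed between DKO and WT in both directions, and 0 of 28 passed. The difference was above 0 for 20 of 32, with a median of 0.07, against 50.9% and 0.00 for all genes. Cldn5 differed by -0.73 (SE 0.27, 95% interval -1.30 to -0.15, limma adjusted p = 0.460), Eng by -0.55 (SE 0.29, limma adjusted p = 0.702), Vwf by -0.48 (SE 0.14, limma adjusted p = 0.273) and Cd36 by 0.33 (SE 0.22, limma adjusted p = 0.813). Cldn5 and Vwf had an unadjusted p under 0.05 in limma, against 7.91% of all genes, and 0.306% of all genes passed after adjustment. Cldn5 and Vwf were also wholly lower, against 7.28% of all genes, and Cd36 wholly higher, against 7.33%.

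The members did not all follow one another from array to array. On deviations from the group means, the correlation of each member with the median of the others ran from -0.72 to 0.96 over 12 arrays, with a median of 0.55 and 17 of 32 above 0.5. Aqp1 followed the others most closely (0.96), then Gpihbp1 (0.94), Ecscr (0.93) and Ptprb (0.90), and these stayed at 0.80 to 0.95 over the 11 arrays without untreated DKO array 3. Pecam1 (0.14), Tek (0.01) and Vwf (-0.06) lay near 0. Fabp4 went from -0.11 to 0.74 when that array was left out, and Cd36 from -0.72 to -0.31, whereas Eng went from 0.49 to 0.02. These correlations describe arrays that share mice and a common normalisation.

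Ligands, receptors and fate genes of endothelial signalling outside the 32 had medians nearer 0. Of 55 measured, 48 were tested and 0 passed in any of the 5 comparisons with limma. Their medians were 0.07 (WT) and -0.06 (DKO) for the Iso effects and -0.04 for the difference of those effects. For DKO minus WT they were 0.07 without Iso and 0.01 with it. Leaving out untreated DKO array 3 gave -0.04 for Iso in DKO, 0.00 for the difference and 0.04 for DKO minus WT without Iso. The Notch ligand Dll4 differed by 0.87 in DKO without Iso (limma adjusted p = 0.0889) and by -0.87 with Iso in DKO (limma adjusted p = 0.0620), and the Notch target Hey1 by -0.97 in the difference of Iso effects (limma adjusted p = 0.376). Bmpr2, a BMP receptor, differed by 0.82 there (limma adjusted p = 0.453). Of the 14 endocardial, venous and lymphatic markers measured, which include Plvap and Vwf, 0 passed, and their median in DKO without Iso was 0.01, against 0.35 for the 32 members, and 0.09 against 0.21 without untreated DKO array 3. The median Iso effect of these 14 was 0.18 in WT and 0.00 in DKO, or -0.02 in DKO without untreated DKO array 3. For DKO minus WT among treated arrays it was -0.20. Pdpn, of lymphatic endothelium, differed by -0.82 (limma adjusted p = 0.511) and Selp, P-selectin of veins and platelets, by -0.79 (limma adjusted p = 0.376) in the difference of Iso effects.

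Markers of the other cells in such a preparation were read on the same scale. In DKO without Iso, where the 32 members had a median of 0.35, the median was 0.01 for 18 cardiomyocyte genes, 0.04 for 14 mural genes, -0.08 for 15 fibroblast genes, -0.02 for 20 macrophage and leukocyte genes, 0.08 for 10 mesothelial genes, 0.03 for 9 blood and platelet genes and -0.24 for 7 atrial genes. Without untreated DKO array 3, where the members had 0.21, these medians were 0.03, 0.09, -0.11, -0.05, 0.06, -0.02 and -0.05 in the same order. On untreated DKO array 3 the endothelial median was the highest of all arrays (0.38) and the cardiomyocyte median the lowest (-0.15, against -0.09 to 0.10 on the others). The endothelial signalling (0.11), mesothelial (0.15) and blood and platelet (0.14) lists also had their highest median on that array. Mural genes stood at 0.08 and fibroblast genes at -0.02. The part of these other cells in the endothelial values was not tested. With Iso in DKO the medians of the macrophage and leukocyte list (-0.09), the mesothelial list (-0.17) and the blood and platelet list (-0.18) were also below 0, and in the difference of Iso effects they were -0.21, -0.37 and -0.09. Without untreated DKO array 3 the same medians were -0.12, -0.10 and -0.12 for Iso in DKO and -0.16, -0.36 and -0.17 for the difference. For Iso in WT, where the 32 members had a median of 0.14 with 25 above 0, other lists lay above 0 as well: the mesothelial median was 0.13 with 8 of 10 above 0, the atrial 0.19 with 5 of 7, the blood and platelet 0.08 with 6 of 9 and the cardiomyocyte 0.07 with 17 of 18. The fibroblast, mural and macrophage lists had medians of -0.03, -0.04 and -0.04. Atrial genes were high on treated WT arrays 1 and 2 (0.40 and 0.52) but not on array 3 (-0.11).

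In the fit of all 12 arrays, single genes of those lists passed where no endothelial marker did. For Nppa, the atrial natriuretic peptide, untreated DKO minus untreated WT was -1.61 (limma adjusted p = 0.00733). Treated DKO minus treated WT was -1.28 (limma adjusted p = 0.0262). The platelet gene Gp6 rose by 1.02 with Iso in DKO (limma adjusted p = 0.0275), but it was not above the array median on all arrays. Other platelet genes did not rise there: Pf4 differed by -0.29 (limma adjusted p = 0.475) and Ppbp by -0.27 (limma adjusted p = 0.591). Of the blood and platelet list, 2 of 9 genes were above 0 in that comparison. For macrophage Cd74 and Cd14, treated DKO minus treated WT was -0.94 and -0.92 (limma adjusted p = 0.0400 and 0.0402). Their Iso effects in DKO were -0.81 and -0.08 and did not pass (limma adjusted p = 0.0689 and 0.836). The haemoglobin gene Hbb-bt differed by -2.05 between treated DKO and treated WT (limma adjusted p = 0.0375). Its Iso effect in DKO was -1.70 and did not pass (limma adjusted p = 0.0700). For Ppbp, of platelets, DKO minus WT was -1.46 among untreated arrays (limma adjusted p = 0.0312) and -1.55 among treated ones (limma adjusted p = 0.0206). Ptprc, the leukocyte antigen CD45, Ly6g, S100a8 and S100a9 lay above the array median on none of the 12 arrays.

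**Figure D5:**
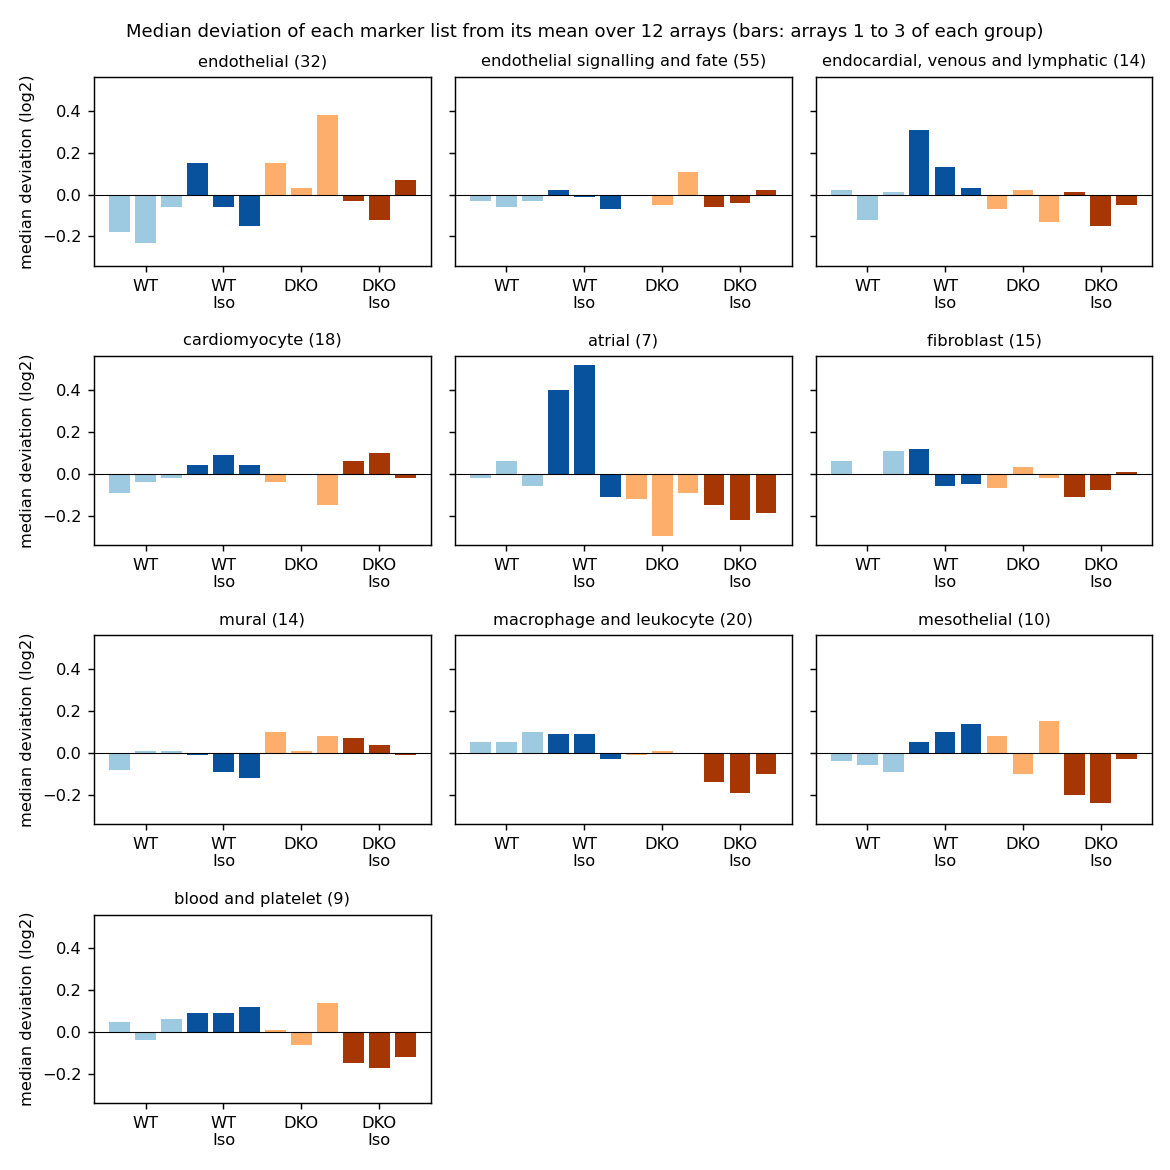
Bars show, for each marker list and array, the median deviation in log2 of its genes from their own means over 12 arrays, with the number of genes measured in each title. The endothelial bars reach 0.38 on untreated DKO array 3, where the cardiomyocyte bar is at -0.15.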

How the data were processed

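RNA of 12 cultures was labelled as biotinylated cRNA and read on Affymetrix arrays, of a type and annotation build that the sources used here do not name. Values are deposited log2 signals that the authors made with RMA, per the submitters' processing notes (version not given), and were used as deposited. They ran from 2.25 to 13.83, and the arrays shared one distribution (largest gap between quantiles 0.00187). RMA scaling makes every value relative within its array, and the number of arrays, 3 per group, limits the precision.

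Of 25428 probe sets, 723 had no symbol, and 24704 genes resulted. Genes above the array median (percentile 50) on at least 3 of 12 arrays were tested (13737). limma 3.58.1 in R 4.3.3 fitted 4 group means with eBayes, with Benjamini-Hochberg adjustment over all genes tested and a threshold of 0.05. Intervals are 95%. The fit was tested on simulated data. Untested members have differences of means only.

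The members and lists were chosen with earlier results of these data known. Values on every array are given for members that passed (none), the 5 largest differences per comparison and Pecam1, Cdh5, Kdr, Tek, Emcn, Vwf and Cd36. Genes outside the 32 are named if they passed or, in the 2 other endothelial lists, were among the 3 largest differences in Iso effect. Myh7, Pf4, Ptprc, Ly6g, S100a8 and S100a9 were named outside this rule. Fli1 and Esam, and the remaining members given with differences, were singled out after their values were seen, as were genes used to check the labels.

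The labels give the 2 arrays of a mouse the same number, so numbers pair the arrays. Deviations from group means correlated at 0.00733, 0.0864 and 0.130 within DKO mice 1 to 3 and at -0.0623, 0.0566 and 0.0109 within WT mice 4 to 6 (consensus 0.0333). Alternatives were other scalings, filters, array weights, the mouse as a block, fits on fewer groups and leaving out arrays. Leaving out DKO mouse 3, or untreated DKO array 3 with treated WT array 1, was added after seeing the data.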

Additional observations from a re-analysis of the deposited data

Results flagged for a closer look

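For 5 members every WT mouse was higher with Iso and every DKO mouse lower, against 1.90% of all genes. These members were picked by those signs, and some of the differences were small. Fli1 differed by 0.08 in WT mouse 5 and Ptprb by -0.04 in DKO mouse 2. Without untreated DKO array 3, their Iso differences in DKO ran from -0.36 for Gpihbp1 to -0.01 for Ptprb. The difference of the effects, DKO minus WT, was -0.62 for Ptprb (limma adjusted p = 0.466), -0.30 for Fli1 (0.629), -0.77 for Gpihbp1 (0.392), -1.11 for Aqp1 (0.416) and -0.70 for Ecscr (0.498). None of the 5 passed the test of that difference. Groups of 3 arrays were too small for the check on single arrays far from their group.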

How the results depend on the processing

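With the mouse as a replicate block, fitted as random or fixed, 0 members passed in any comparison it could be fitted for, and the pairing left the member medians at 0.14 (WT) and -0.23 (DKO) for the Iso effects and -0.40 for their difference. As a random block they were 0.35 for DKO without Iso and 0.07 with Iso. A fixed mouse block could not be fitted for the genotype comparisons, nor the difference of effects on fewer groups. Array weights gave 2 members past the threshold for Iso in DKO, where 8.07% of all genes passed, and 7 for DKO without Iso, where 5.08% did. Leaving out untreated DKO array 3 with treated WT array 1 moved the median to -0.07 for Iso in DKO, -0.20 for the difference of effects and 0.21 for DKO without Iso, and leaving out DKO mouse 3 moved the last to 0.21. Leaving out each array in turn, 0 members passed for Iso in WT, the difference of effects and DKO with Iso, 0 to 2 for Iso in DKO and 0 to 1 for DKO without Iso, with medians of 0.06 to 0.22, -0.50 to -0.28, -0.04 to 0.12, -0.36 to -0.07 and 0.21 to 0.45. Of 160 differences, 38 changed sign in some setting. For the dim members only the 2 filter settings in which they were tested were counted, so 38 is a minimum.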
